A study of Mus musculus with 10 samples.

Results

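Open chromatin was examined at 41 genes of the bone morphogenetic protein (Bmp) and transforming growth factor beta (Tgf-beta) pathways in the neonatal mouse cochlea. The genes were a fixed list of ligands, antagonists, receptors, Smad proteins and Id targets, taken by name and not by a threshold on a measured value. Each accessible region was given to whichever protein-coding gene lay nearest, up to 100 kb away and at distance 0 inside a gene. Of 64911 regions, 59260 had such a gene, and 276 of these belonged to 39 of the 41 genes. Over all protein-coding genes, 15865 of 21887 had a region. The growth factor gene Gdf5 and the antagonist gene Grem1 had no region.

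ATAC-seq, in which a transposase cuts and tags open chromatin, was run on nuclei from both cochleae of CD1 mice, an outbred stock, of 3 animals aged 2 days (P2), 3 aged 5 days (P5) and 4 aged 8 days (P8). All animals were of the same stock, and the labels name no treatment or transgene, so the groups differed by age alone as far as the labels say. Nuclei came from the whole dissected tissue with no sort for a cell type. The files hold 1 peak list per age, so no spread between animals could be measured and no test was made. Fewer nuclei with a region open and less accessibility per nucleus cannot be told apart in whole tissue.

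Bmp, growth and differentiation factor (Gdf), activin and Tgf-beta ligands are secreted dimers that bring type 1 and type 2 receptor kinases together. The type 1 receptor then phosphorylates receptor Smads, which enter the nucleus with the common Smad, Smad4, and bind DNA at target genes, among them the Id genes and the inhibitory Smads that feed back on the receptors. In the inner ear, Bmp signalling is known for its part in forming the otic capsule and patterning the cochlear duct, and Bmp4 marks the outer side of the sensory epithelium.

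The members' regions were called at every age about as often as those of all genes, and more of them were lost than gained with age. The P2 list held 222 of the 276 regions, the P5 list 196 and the P8 list 198. A total of 143 (51.8%, Wilson 95% interval 45.9 to 57.6) were called at all 3 ages, against 51.9% of all regions given to a gene. From P2 to P8, 36 member regions were gained, meaning called at P8 and not at P2 (13.0%, 9.57 to 17.5), against a background of 13.0%. In the other direction 60 were lost (21.7%, 17.3 to 27.0), against 25.8%. Both shares lay near the background, and the background shares fell inside the members' intervals, which cover counting error only. The net gain, gained minus lost regions, was -8.70 per 100 member regions and -12.8 per 100 over all regions given to a gene.

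The balance moved with the lengths of the lists, of 52085 peaks (P2), 47683 (P5) and 43878 (P8). With each list shortened to its top 43878 peaks, 46 member regions were gained and 41 were lost, against 17.9% gained and 18.4% lost over all regions. Of the 60 member regions lost from P2 to P8, 38 were already absent at P5 and 22 were still called. The share still called was 36.7%, near the 38.8% of all lost regions. From P2 to P5, 31 member regions were gained against a background of 11.6% and 57 were lost against 19.3%, which are 11.2% and 20.7% of the 276. From P5 to P8 the counts were 42 gained and 40 lost, or 15.2% and 14.5%, with backgrounds of 10.7% and 15.8%. Member gains and losses were thus nearly even in the second step, whereas over all genes losses outnumbered gains in both. Of the 57 regions lost by P5, however, 19 were called again at P8 and are among the 42 gained. A region missed at P5 would enter both counts in this way.

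**Figure D1:**
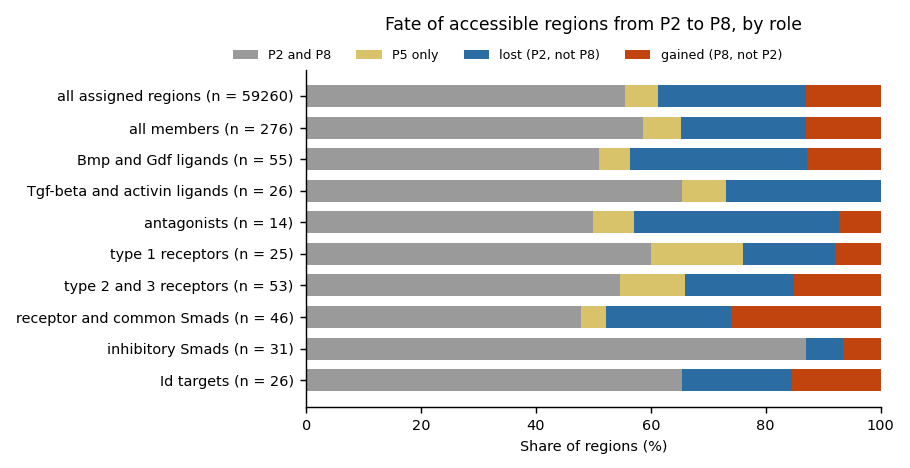
Share of accessible regions (horizontal axis, %) called at both P2 and P8, at P5 only, lost or gained, for all regions given to a gene, for the 41 genes together and for each of 8 roles, with the number of regions in brackets. The Tgf-beta and activin ligands have no gained region, and the receptor and common Smads have the widest gained segment, 12 of 46.

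Single genes were counted by the sign of their net gain. Of the 39 genes with regions, 9 had more gained than lost regions, 23 had more lost than gained and 7 had equal numbers. These are 23.1% and 59.0% of the members, against 13.9% and 38.1% of the 15865 genes with any region. A member had a median of 4 regions, against 2 over all genes with a region, and a gene with more regions can differ from 0 in more ways. Members were not compared with genes of like region number, so the part of region number in these shares was not tested. The lean was shallow in 20 genes, with a net gain of -1 in 15 and of 1 in 5. A net gain of -2 or lower was found at 8 genes and of 2 or higher at 4.

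**Figure D2:**
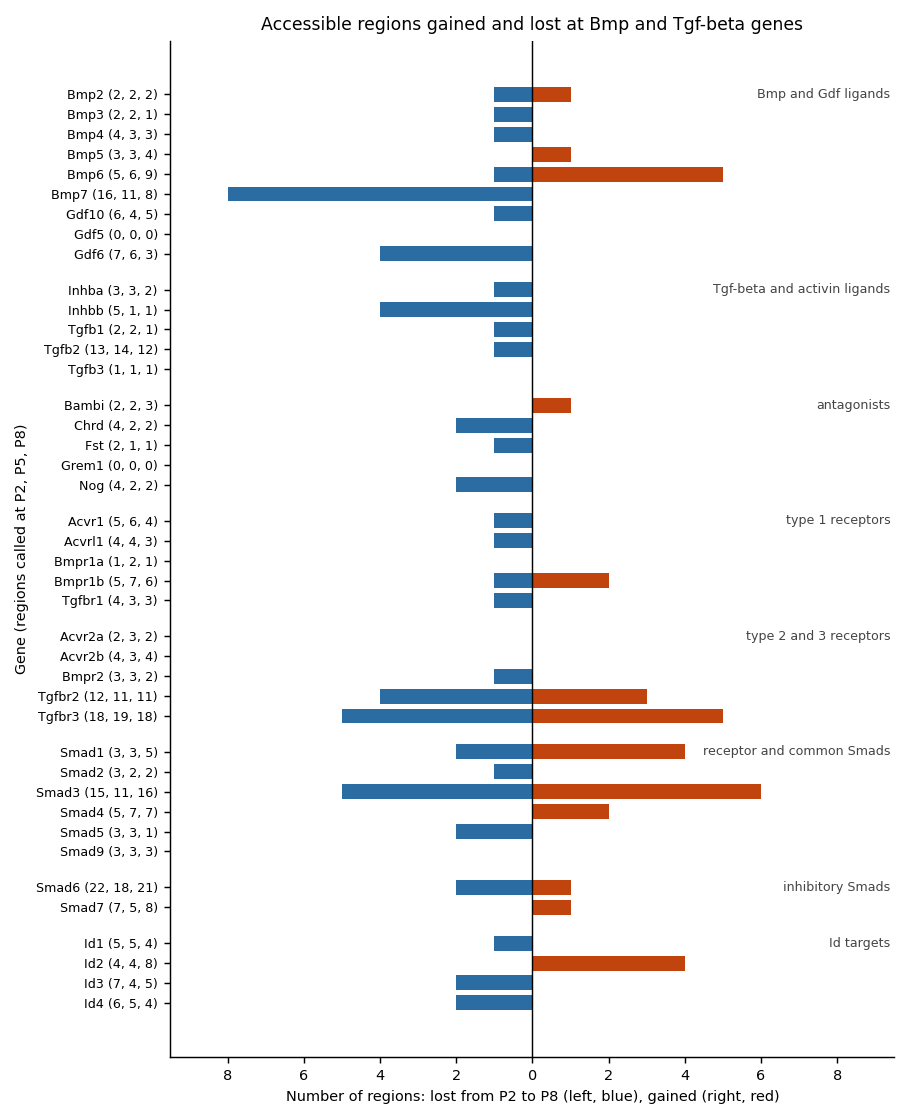
Number of regions lost from P2 to P8 (bars to the left) and gained (bars to the right) at each of the 41 genes, ordered by role, with the regions called at P2, P5 and P8 in brackets. Bmp7 has the longest bar of losses, 8 regions, and Smad3 the longest bar of gains, 6 regions.

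Start sites differed by role before any change with age. Start-site windows from RefSeq on GRCm38.p6, reaching from 250 bases before the start to 50 after it, were found for 26 of the 41 genes. A peak overlapped the window at all 3 ages at 16 of the 26 (61.5%), against 49.4% of 17492 protein-coding genes. These 16 were Id2, Id3, Id4, Smad1, Smad3, Smad5, Smad6, Smad9, Tgfbr1, Tgfbr2, Acvr1, Acvr2a, Acvr2b, Bmpr1a, Chrd and Tgfb1, so that every Smad and Id gene with a window was among them, and of the 8 ligands with a window only Tgfb1. The window had no peak at any age at 8 genes, which were Bmp4, Bmp5, Bmp6, Inhba, Tgfb2, Grem1, Bmpr1b and Bmpr2. The window of Gdf10, a Bmp-like ligand, was open at P2 and P8, and that of Inhbb, the activin beta B subunit, at P2 alone.

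Several windows with no peak lay beside a called region. At Bmpr2, the type 2 Bmp receptor, a region centred 0.83 kb before the start site was called at every age, with a within-list percentile of 88.6 (P2), 85.7 (P5) and 85.4 (P8). Values for the 3 ages are given in this order from here on. The within-list percentile orders the peaks of an age by the authors' own ranking value, with 100 at the top, and a lower percentile in a list of another length shows no change. Bmp6 had a region centred 0.68 kb before its start at 84.5, 81.3 and 83.4, Inhba one 0.51 kb after it at 87.2, 90.9 and 84.4, and Tgfb2 one 0.52 kb after it at 62.0, 33.5 and 64.2. The nearest region lay 3.32 kb after the start at Bmp4 and 3.6 kb after it at Bmp5. At Grem1, which binds Bmp ligands outside the cell, the nearest region lay 65.5 kb before the start, was called at P5 alone and stood at percentile 0.38.

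**Figure D3:**
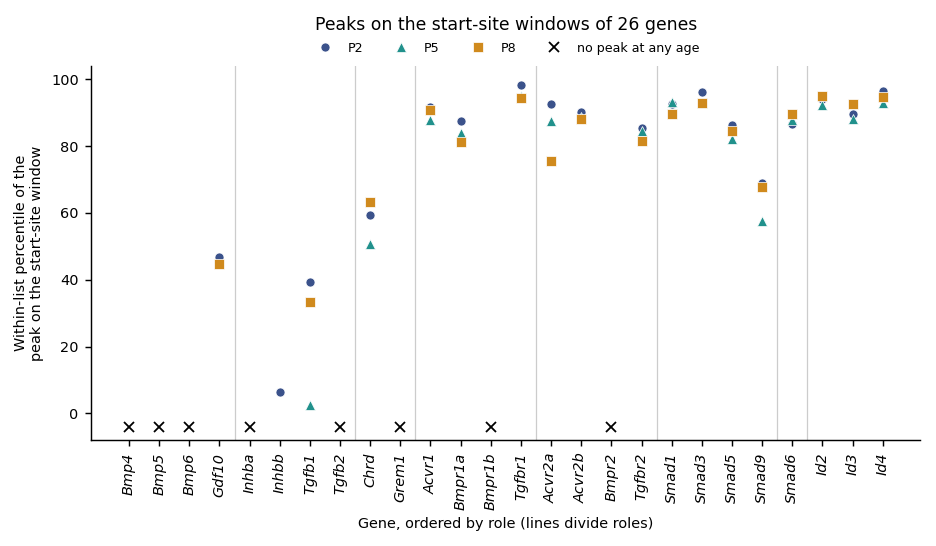
Within-list percentile (vertical axis, 100 at the top of the list) of the peak on the start-site window of each of 26 genes at P2, P5 and P8, with genes ordered by role along the horizontal axis and a cross where no age had a peak. Id2, Id3 and Id4 lie between 88.1 and 96.5 at all ages, whereas the windows of Tgfb1 and Inhbb lie at 39.3 or lower.

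The bases around 6 of these starts are shown because they cover the observed states. Smad6, Id2, Id3 and Id4 are pathway targets with open windows, Inhbb had a window open at P2 alone, and Bmp6 had a window with no peak beside a called region. Each line gives 150 bases before and 10 bases from the start site on, 5′ to 3′ on the gene's strand, from RefSeq on GRCm38.p6. Smad6 is at chr9:64022050-64022209 on the minus strand, Id2 at chr12:25096083-25096242 on the minus strand, Id3 at chr4:136143672-136143831 on the plus strand, Id4 at chr13:48260966-48261125 on the plus strand, Inhbb at chr1:119422239-119422398 on the minus strand and Bmp6 at chr13:38345566-38345725 on the plus strand. Capitals mark matches, on either strand, to 4 motifs tied to Smad binding, which are the palindrome GTCTAGAC, the GC-rich Bmp element GGCGCC, its variant GGAGCC, and the Smad box CAGACA.
Smad6: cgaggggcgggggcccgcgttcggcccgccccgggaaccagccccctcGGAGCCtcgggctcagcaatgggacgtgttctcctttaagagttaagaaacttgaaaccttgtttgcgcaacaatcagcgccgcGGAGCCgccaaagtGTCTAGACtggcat
Id2: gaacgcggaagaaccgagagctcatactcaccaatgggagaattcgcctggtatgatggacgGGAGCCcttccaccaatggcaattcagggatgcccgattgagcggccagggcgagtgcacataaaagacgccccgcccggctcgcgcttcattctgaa
Id3: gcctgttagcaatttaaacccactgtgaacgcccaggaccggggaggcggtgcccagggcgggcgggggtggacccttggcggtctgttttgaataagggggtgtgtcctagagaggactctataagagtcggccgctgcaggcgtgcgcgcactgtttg
Id4: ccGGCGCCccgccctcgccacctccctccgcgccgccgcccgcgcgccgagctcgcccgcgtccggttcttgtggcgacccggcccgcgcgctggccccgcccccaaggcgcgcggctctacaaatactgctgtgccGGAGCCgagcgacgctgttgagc
Inhbb: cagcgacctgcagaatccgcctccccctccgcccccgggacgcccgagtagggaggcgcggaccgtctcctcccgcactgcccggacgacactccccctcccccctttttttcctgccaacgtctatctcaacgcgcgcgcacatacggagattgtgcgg
Bmp6: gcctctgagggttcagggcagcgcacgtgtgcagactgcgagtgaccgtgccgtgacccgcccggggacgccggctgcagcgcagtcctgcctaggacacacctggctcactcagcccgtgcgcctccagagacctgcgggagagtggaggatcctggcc

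The palindrome GTCTAGAC was found in the window of 1 of the 26 genes, Smad6, and at 0.263% of all 17492 genes. Its first base stood at position -4, with the start site as 0, so the match spans the start. A gene with several windows was counted once if any held the motif. GGCGCC was found at 10 of the 26 genes (38.5%, against 17.3% of all genes), GGAGCC at 16 (61.5% against 37.8%) and CAGACA at 5 (19.2% against 21.5%). The members' windows were richer in G and C, with a median of 66.3% against 56.3%, and how far this moves the counts of the GC-rich motifs was not tested. The Id2 stretch holds GGAGCC at position -88, and the Id4 stretch holds GGCGCC at -148 and GGAGCC at -13. Inhbb and Bmp6 have none of the 4 in their windows, and Id3 has GGAGCC at -187 on the other strand, before the printed stretch. These matches describe the letters and are not evidence of binding.

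Among Bmp and Gdf ligands 7 regions were gained and 17 lost of 55, a net gain of -18.2 per 100. These are 12.7% gained (6.30 to 24.0) and 30.9% lost (20.3 to 44.0), near the 13.0% and 25.8% of all regions. By age, 45, 37 and 35 of them were called. At lists of equal length the group had 8 gained and 8 lost, so its net gain was 0 there. Bmp7 and Gdf6 held 12 of the 17 losses, and Bmp6 held 5 of the 7 gains.

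Bmp7, a ligand used in kidney, eye and skeleton, had 16, 11 and 8 regions at the 3 ages. It lost 8 and gained none. Bmp7 lies at chr2:172868012-172940321. Of the lost regions, 7 lay outside the gene, 6 of them between 5.97 and 94.4 kb beyond its lower-coordinate end. The highest-ranked lost region of Bmp7, chr2:172861540-172862038, stood at percentile 36.6 at P2 and was already absent at P5. None of the 8 was in the upper 50% of the P2 list, and at equal list length the net gain of Bmp7 was -1. Most of the kept regions ranked higher at P2 than any lost one. The region over the gene's higher-coordinate end, chr2:172940076-172940616, ranked 80.3, 65.3 and 65.4. A group of 5 regions 21.5 to 42.4 kb beyond the lower-coordinate end was called at every age. Another kept region, chr2:172863122-172863630, stood at only 12.4 at P2 and 11.2 at P8 and was not called at P5.

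Gdf6, which is needed to form some joints, had 7, 6 and 3 regions, with 4 lost and none gained. Gdf6 lies at chr4:9844372-9862345. The highest-ranked lost region of Gdf6, chr4:9859664-9860246 inside the gene, went from percentile 69.9 at P2 to 31.5 at P5 and was not called at P8. A second, chr4:9763333-9763831, lay 80.5 kb from the gene and stood at 57.1 at P2 only. Another lay over the gene's lower-coordinate end and was called at P2 and P5, at 49.0 and 15.3. The region of Gdf6 called at all ages with the highest rank, chr4:9770399-9770900, stood at 81.3, 83.9 and 81.7. Under all 10 alternative settings tried, Gdf6 stayed below 0, from -4 to -2.

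Bmp6 ran the other way, with 5, 6 and 9 regions. It gained 5 regions and lost 1. Bmp6 lies at chr13:38345716-38500314, and all 5 gained regions were inside the gene, 30.5 to 139 kb after the start. The highest-ranked gained region of Bmp6, chr13:38484710-38485208, stood at percentile 42.6 and was called at P8 alone, whereas those 30.5 and 44.3 kb after the start were already called at P5. The lost region, chr13:38342613-38343111, lay 2.85 kb before the start at percentile 27.8. With only the upper 50% of each list the net gain of Bmp6 was 0, and likewise when a region was given to the nearest gene end.

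The other Bmp and Gdf ligands had a net gain between -1 and 1 from P2 to P8. Bmp4, which marks part of the cochlear duct, had 4, 3 and 3 regions with 1 lost, and a region inside the gene ranked 76.2, 81.3 and 77.9. Bmp5 had 3, 3 and 4 regions with 1 gained, and its highest-ranked region, chr9:75910035-75910542, lay 9.72 kb past the gene's downstream end at 90.2, 94.8 and 84.1. Gdf10 had 6, 4 and 5 regions with 1 lost, and its highest-ranked region lay 99.1 kb before the start at 80.2, 89.4 and 86.7. Bmp3, which opposes other Bmps in bone, had 2, 2 and 1 with 1 lost. Bmp2 had 2 regions at each age but 1 gained and 1 lost, so no single Bmp2 region was called at every age. The region over the Bmp2 gene's lower-coordinate end was lost at P8.

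**Figure D4:**
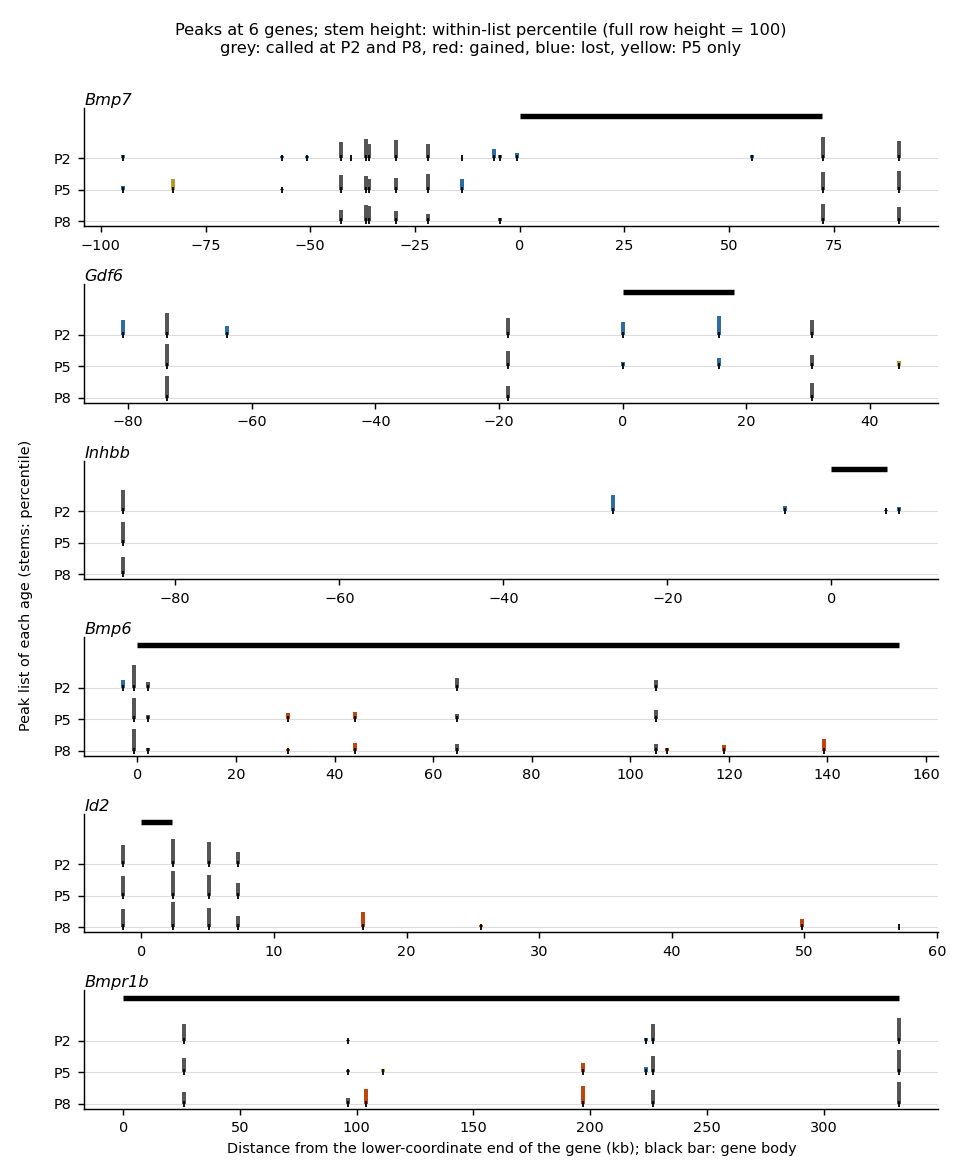
Peaks of each age at Bmp7, Gdf6, Inhbb, Bmp6, Id2 and Bmpr1b, by distance in kb from the gene's lower-coordinate end (horizontal axis), with the gene body as a black bar and stem height for the within-list percentile. Blue stems, lost by P8, are most numerous at Bmp7, with 8 regions, and red stems, gained by P8, lie inside Bmp6 and Bmpr1b and upstream of Id2.

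In the full lists, no Tgf-beta or activin ligand gained a region. This group of 5 genes had 24, 21 and 17 regions at the 3 ages, and of 26 in all, 0 were gained (upper limit 12.9%) and 7 lost (26.9%, 13.7 to 46.1), against 13.0% and 25.8% of all regions. The lost share was thus near the background. Inhbb held 4 of the 7 losses, and its count was 5, 1 and 1. All 4 lost Inhbb regions were gone at P5. They included the one on the start site, chr1:119421860-119422358, at percentile 6.41, and a stronger one 33.4 kb past the start, chr1:119388601-119389099, at 59.1. The single Inhbb region called at all ages, chr1:119328871-119329371, lay 93.1 kb past the start and stood at 80.7, 78.2 and 63.5. The count of 0 gained did not hold in all settings. At equal list length the group had 3 gained and 5 lost of 25 (12% and 20%), against 17.9% and 18.4% of all regions. At an irreproducible discovery rate (IDR) of at most 0.01, 3 of 24 were gained (12.5% against 11.1%). With only the upper 50% of each list, 2 of 12 were gained (16.7% against 10.6%).

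Tgfb2, a ligand with known roles in inner ear development, had the most regions in the group, with 13, 14 and 12 by age. Of these 11 were called at every age, 1 was called at P2 and P8, 1 was lost and 2 were called at P5 alone. The lost Tgfb2 region, chr1:186631103-186631654 inside the gene, stood at percentile 5.93 at P2 and 27.2 at P5. The highest-ranked Tgfb2 region, chr1:186572022-186572520, lay 50.3 kb past the downstream end at 77.8, 77.4 and 69.2. Tgfb3 had a single region, 0.28 kb from a gene end, at 85.7, 85.8 and 83.6. Tgfb1 had 2, 2 and 1 regions, and the peak on its start site ranked 39.3, 2.56 and 33.2. Inhba, the activin beta A subunit, had 3, 3 and 2 regions and lost the one 6.13 kb before its annotated start.

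The extracellular and membrane antagonists had few regions, 12, 7 and 8 by age, and of 14 in all, 1 was gained and 5 were lost. The lost share was 35.7% (16.3 to 61.2), an interval that holds the 25.8% of all regions. The net gain was -28.6 per 100, against -12.8 over all regions, and lay between -46.2 and -7.14 under the 10 alternatives. In the full lists its sign is that of the background. At equal list length it was again -28.6, against -0.538 over all regions, with 35.7% lost against 18.4%. At an IDR of at most 0.01, 7 of 13 were lost (53.8% against 27.4%). With only the upper 50% of each list, 2 of 5 were lost (40% against 23.9%). All of these shares rest on few regions. Nog and Chrd, which bind Bmp ligands and hold them from their receptors, each had 4, 2 and 2 regions and 2 losses. The higher-ranked lost Nog region, chr11:89298174-89298688, lay 1.95 kb beyond the gene and stood at percentile 58.9 at P2 and 43.5 at P5. The other was 56.8 kb away and was called at P2 alone. The Nog region called at all ages, chr11:89303373-89303873, lay 0.81 kb from the gene at 59.2, 34.2 and 43.9. The net gain of Nog lay between -3 and -1 under all alternatives.

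Both lost Chrd regions, chr16:20746626-20747124 and chr16:20829264-20829762, stood low in the P2 list, at 24.6 and 20.4. The kept pair lay 70.4 and 71.6 kb past the start, and the higher, chr16:20804449-20804948, ranked 81.0, 77.1 and 81.7. The region on the Chrd start site was called at all ages at 59.5, 50.7 and 63.2 but was given to the neighbour Thpo by the nearest-gene rule, so the Chrd counts do not hold it. Fst, which binds activins, had 2, 1 and 1 regions with 1 lost. Bambi, a decoy receptor without a kinase, had 2, 2 and 3 with 1 gained, and the region inside its gene was among the strongest of all members, at 97.9, 97.1 and 96.9.

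Type 1 receptors had 19, 22 and 17 regions, and of 25 in all, 2 were gained and 4 lost. These are 8% (2.22 to 25.0) and 16% (6.40 to 34.7), intervals that hold the 13.0% and 25.8% of all regions. Both gains were at Bmpr1b, a Bmp receptor of cartilage and the developing skeleton, which had 5, 7 and 6 regions and 1 loss. These were 2 of the 4 gained member regions in the upper 50% of the P8 list. One, chr3:142033812-142034314, went from percentile 32.7 at P5 to 66.2 at P8, and the other, chr3:141940856-141941354, was called at P8 alone at 56.2. Both lay inside the Bmpr1b gene, at chr3:141837135-142169585. The lost region, chr3:142060664-142061268, stood at 11.8 at P2 and 20.2 at P5. The Bmpr1b region over the gene's higher-coordinate end, chr3:142169060-142169558, was open at 85.8, 83.7 and 81.0, although no peak lay on the 3 start-site windows that the table gives for Bmpr1b. When each region counted for every member within 50 kb, 2 were gained and 3 lost, a net gain of -1.

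The other type 1 receptors lost 1 region each or none. Tgfbr1, the Tgf-beta receptor kinase, had 4, 3 and 3 regions, and its start-site region had the highest percentiles of any member at P2, 98.3, and ranked 95.05 and 94.5 later. Acvr1 had 5, 6 and 4 regions, and Acvrl1, a receptor of blood vessel endothelium, had 4, 4 and 3. The start-site region of Acvr1, at 91.7, 87.8 and 90.8, was given to the neighbour Upp2 and is not in its count. Bmpr1a had 1, 2 and 1 regions with none gained or lost, and its start-site region ranked 87.4, 84.0 and 81.2.

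Type 2 and type 3 receptors came close to even in count, with 8 gained and 10 lost of 53 regions and 39, 39 and 37 called. These are 15.1% (7.85 to 27.1) and 18.9% (10.6 to 31.4), intervals that hold the 13.0% and 25.8% of all regions. At equal list length the direction turned, with 10 gained (19.6%) and 7 lost (13.7%), against 17.9% and 18.4% of all regions. Tgfbr3, betaglycan, which presents Tgf-beta ligands to the kinases, had 27 regions, the most of any member, with 18, 19 and 18 called, 5 gained and 5 lost. The lost Tgfbr3 region of highest rank, chr5:107055493-107055991, lay 50.6 kb beyond the gene at percentile 71.9 and was called at P2 alone. The gained Tgfbr3 region of highest rank, chr5:107261133-107261649, was inside the gene at 11.9 at P5 and 40.2 at P8. The region over the gene's higher-coordinate end, chr5:107289170-107289761, was called at all ages at 84.6, 80.6 and 84.3.

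Tgfbr2, the type 2 kinase for Tgf-beta, had 12, 11 and 11 regions, with 3 gained and 4 lost. Its highest-ranked gained region, chr9:116107222-116107720, lay inside the gene 67.9 kb past the start and was called at P8 alone at 57.9. All 4 lost Tgfbr2 regions also lay inside the gene, and the highest-ranked, chr9:116087810-116088308, stood at 30.6. The start-site region, chr9:116175031-116175530, ranked 85.5, 84.7 and 81.6. The net gain of Tgfbr2 was -1 and turned positive under 4 alternatives, up to 3 at equal list length. Acvr2a, with 2, 3 and 2 regions, and Acvr2b, with 4, 3 and 4, gained and lost none, and their start sites ranked between 75.5 and 92.6. Bmpr2 had 3, 3 and 2 with 1 lost.

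Receptor and common Smads were the single role with more gains than losses, 12 against 10 of 46 regions, with 32, 29 and 34 called. The gained share was 26.1% (15.6 to 40.3), against 13.0% of all regions. At lists of equal length it was 30.2% against 17.9%, and at an IDR, the authors' irreproducible discovery rate, of at most 0.01 it was 11.4% against 11.1%. The net gain of 4.35 per 100 was below 0 at that IDR, at -17.1. It was also below 0 when each region counted for every member within 50 kb, at -1.85, and 11.6 at equal list length. The direction of this group therefore depended on the setting.

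Smad3, which carries Tgf-beta and activin signals, had 15, 11 and 16 regions, with 6 gained and 5 lost. Smad3 lies at chr9:63646766-63757994. Its highest-ranked gained region, chr9:63823416-63823914, lay 65.7 kb before the start at percentile 35.1 and was called at P8 alone, and 3 of the 6 were already called at P5. Its highest-ranked lost region, chr9:63658814-63659317, lay inside the gene at 43.6 at P2 and 28.6 at P5. The start-site region of Smad3, chr9:63757888-63758401, ranked 96.2, 93.0 and 92.9. The net gain of 1 turned to between -4 and -1 under 4 alternatives.

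Smad1, which carries Bmp signals, had 3, 3 and 5 regions, with 4 gained and 2 lost. All 4 gained Smad1 regions lay inside the gene, 14.4 to 49.0 kb past the start, at percentiles of 5.74 to 21.95 at P8, and the highest was chr8:79350139-79350638. The higher-ranked lost region, chr8:79355876-79356374, stood at 18.5. None of the changed Smad1 regions was in the upper 50% of its list, while the start-site region, chr8:79399210-79399787, ranked 92.7, 93.1 and 89.5. Smad5, its close relative, had 3, 3 and 1 regions and lost 2, of which chr13:56735431-56735929 inside the gene stood at 52.4 at P2 and was absent at P5. The start-site region of Smad5, chr13:56702742-56703320, ranked 86.2, 82.1 and 84.4, and its net gain was below 0 under all alternatives. Smad9, the remaining Bmp Smad, had the same 3 regions at each age, at 52.1 to 75.4. In the full lists Smad1, Smad5 and Smad9 had a net gain of 2, -2 and 0. That of Smad1 turned to -1 at an IDR of at most 0.01 and was 0 in both settings that use the upper 50% of a list.

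Smad4, the common partner, had 5, 7 and 7 regions and gained 2 while losing none. Both gained Smad4 regions were already called at P5, and the higher, inside the gene, stood at 33.8 at P5 and 30.8 at P8. Its highest-ranked region, over a gene end, stood at 88.4, 87.1 and 86.4. The net gain was 2 or 3 in 8 of 10 alternatives and 0 in the others, which both used the upper 50% of lists. Smad2 had 3, 2 and 2 with 1 lost, and the region over its gene end ranked 95.9, 92.3 and 95.1.

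Inhibitory Smads kept the largest share of their regions of the 8 roles, with 27 of 31 called at P2 and P8, 2 gained and 2 lost. Each of these counts is 6.45% (1.79 to 20.7), against 13.0% gained and 25.8% lost of all regions. With only the upper 50% of each list they had 3 gained and 8 lost of 20. These are 15% and 40%, against 10.6% and 23.9% of all regions at that setting. Called regions numbered 29, 23 and 29. From P2 to P5 the group gained 0 and lost 6 (19.4%), against 11.6% gained and 19.3% lost of all regions. From P5 to P8 it gained 7 (22.6%) and lost 1 (3.23%), against 10.7% and 15.8%. Of those 7 regions, 5 had been called at P2. Smad6, an inhibitor of Bmp receptors, had 22, 18 and 21 regions, with 1 gained and 2 lost. Smad6 lies at chr9:63953076-64022085, and regions between it and its neighbour Smad3 were divided by distance. The lost Smad6 region of highest rank, chr9:63980244-63980748, stood at 44.3 at P2 and 27.1 at P5, and the gained one, chr9:63919136-63919634, at 5.48. The region over its start site, chr9:64021816-64022344, covers the palindrome shown above and ranked 86.5, 87.8 and 89.7. Smad7, which acts on both branches, had 7, 5 and 8 regions and gained 1, and the region 0.4 kb from its gene ranked 89.2, 88.0 and 90.8.

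Of all 276 member regions, 19 (6.88%, 4.45 to 10.5) were called at P2 and P8 but not at P5, against 3.53% of all regions given to a gene. This count was chosen after the values were seen. Smad6 and Smad7 held 5 of the 19, of which Smad6 chr9:63862354-63862910 had the highest percentile at P2, 66.0, and stood at 20.1 at P8. At equal list length the members' share was 6.51% (4.11 to 10.2) against 3.51%, at an IDR of at most 0.01 it was 5.46% (3.22 to 9.12) against 3.17%, and with only the upper 50% of each list it was 3.79% (1.63 to 8.56) against 3.25%. With 1 list per age, a region missed at P5 and one closed at P5 cannot be told apart.

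The Id genes encode inhibitors of basic helix-loop-helix factors and are classic Bmp targets. They had 22, 18 and 21 regions, with 4 gained and 5 lost of 26. These are 15.4% (6.15 to 33.5) and 19.2% (8.51 to 37.9), intervals that hold the 13.0% and 25.8% of all regions. The Id regions stood high in the lists, with median percentiles of 75.8, 75.7 and 67.2, against 51.3, 51.4 and 51.2 for all regions. All 4 gains were at Id2, which had 4, 4 and 8 regions and lost none. The gained Id2 regions lay 14.5 to 54.9 kb before the start and were all called at P8 alone. The highest-ranked, chr12:25110288-25110786, stood at 57.4, and the others between 1.47 and 30.5. The 4 regions within 5 kb of the start were called at every age, led by the start-site region, chr12:25095944-25096446, at 94.1, 92.4 and 95.1. None of the 4 gains was called at P5, so the net gain of Id2 was 0 when a change had to be called at P5 as well.

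Id3 and Id4 each lost 2 regions and gained none. Id3 had 7, 4 and 5 regions. Its lost regions, 38.9 kb before and 0.94 kb after the start, stood at 21.8 and 22.1, and the higher was chr4:136144509-136145007. The Id3 region of highest rank at P2, chr4:136140266-136140776, lay 3.30 kb before the start and ranked 93.3, 90.9 and 88.9, and the start-site region ranked 89.6, 88.2 and 92.5. Id4 had 6, 5 and 4 regions, and its lost region 12.8 kb past the start, chr13:48273671-48274183, had the highest P2 percentile of all 60 lost member regions, 75.8, with 67.4 at P5. The start-site region of Id4, chr13:48260599-48261163, ranked 96.5, 93.0 and 94.8, and a region 33.2 kb before the start 94.8, 92.3 and 91.5. Id1 had 5, 5 and 4 regions with 1 lost, at 38.2 at P2 and 52.2 at P5. Under all alternatives the net gain of Id4 was -2 or -1.

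**Figure D5:**
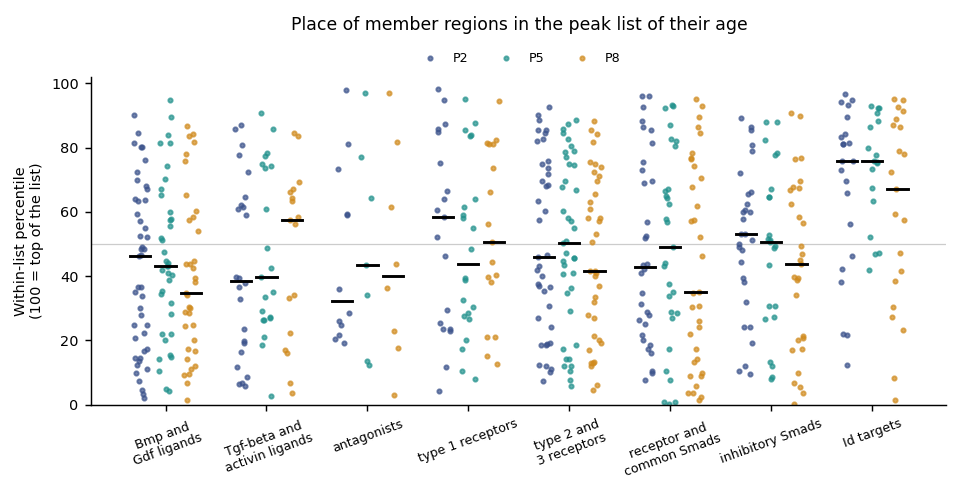
Within-list percentile (vertical axis, 100 at the top of the list) of every member region called at P2, P5 and P8, by role, with 1 point per region and a bar at the median. The Id targets have medians of 75.8, 75.7 and 67.2, and the Bmp and Gdf ligands of 46.1, 43.2 and 34.8.

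Most regions that differed between P2 and P8 stood in the lower 50% of their list. A region counts as changed when 1 of the 2 lists lacks it, which a region near the limit of a list can meet more easily. The gained member regions had a median percentile of 21.0 at P8, against 20.8 for all gained regions, and the lost ones 23.2 at P2, the same as the 23.2 of all lost regions. Member regions called at both ages had medians of 60.7 at P2 and 55.1 at P8, lower than the 66.5 and 59.8 of all such regions. In the upper 50% of a list stood 4 of the 36 gained regions, at Bmpr1b, Id2 and Tgfbr2, and 7 of the 60 lost regions, at Id4, Tgfbr3, Gdf6, Inhbb, Nog and Smad5. These are 11.1% and 11.7%, near the 11.5% and 12.2% of all gained and all lost regions. No gained member region lay within 1 kb of a gene end (0 of 36, upper limit 9.64%), against 5.70% of all gained regions, while 9 of the 60 lost did (15%, 8.10 to 26.1), against 10.8%. The members' regions lay outside the genes more often than those of all genes, with 51.4% inside (45.6 to 57.3) against 67.1%. Of the members with regions, 37 of 39 had at least 1 called at every age, the exceptions being Bmp2 and Fst. None was gained or lost at 5, which were Tgfb3, Bmpr1a, Acvr2a, Acvr2b and Smad9. The matching shares over all genes were not counted. With a median of 4 regions per member, against 2 over all genes, these 2 counts cannot be read as particular to the members.

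By the shares of regions gained and lost, the rest of the pathway stood near the background. Of 84 other genes of these pathways, 78 had regions, and of their 434 regions 64 (14.7%) were gained and 116 (26.7%) were lost, against 13.0% and 25.8% of all regions. More regions were gained than lost at 12 of the 78 genes, and more lost than gained at 42. Over all 15865 genes with a region the counts were 2204 (13.9%) and 6040 (38.1%). Counted by gene, the share with more losses was thus above that of all genes, as it was among the members. The number of regions per gene was not matched in this count. The highest net gain was 3, at Nedd4l, a ubiquitin ligase (7 gained, 4 lost), and Atoh8, a Bmp-responsive transcription factor (3 and 0), followed at 2 by Runx2, Rgma, Ltbp1 and Hey1. The lowest was -7 at Tll2, a protease of the tolloid family (0 gained, 7 lost), then -4 at Zfyve9, which anchors Smads for the Tgf-beta receptor. Next, at -3, were Runx3, Sostdc1, Tgfbi, Tgif1 and Tll1. By type, ligands had 1 gained and 5 lost of 21 regions, maturation and latency proteins 9 and 22 of 69, antagonists and modulators 19 and 34 of 113, receptors and co-receptors 3 and 9 of 29, intracellular regulators 14 and 25 of 103, and targets 18 and 21 of 99. The gained shares ran from 4.76% (ligands) to 18.2% (targets), against 13.0% of all regions. The lost shares ran from 21.2% (targets) to 31.9% (maturation and latency), against 25.8%.

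All 14 marker genes of the labelled tissue, the cochlea, had regions, with 52, 41 and 44 called. Over all protein-coding genes, 15865 of 21887 had a region, and all 7 bone, 4 cartilage and 4 brain markers had one too. Having a region therefore does not set the cochlear genes apart. Of the 68 cochlear marker regions, 14.7% were gained and 26.5% lost, near the 13.0% and 25.8% of all regions. Of the 14 cochlear genes 12 had a region at every age, among them Gjb2, Gata3, Eya1 and Pou3f4. Oc90 had one at P8 alone and Coch none at P5. The share of all genes with a region at every age was not counted. Bone, which the dissection can hold, was represented too. The 7 bone genes had 14, 16 and 27 regions, with 14 gained and 1 lost of 29. These are 48.3% and 3.45%, against 13.0% and 25.8% of all regions. Ibsp and Phex, with none at P2, had 4 and 3 at P8. The 4 cartilage genes had 25, 22 and 22, the 4 brain genes 14, 13 and 11, and the 3 blood and immune genes 3, 6 and 5 with none at Hbb-b1. Gained and lost shares were 18.2% and 27.3% for cartilage and 10.5% and 26.3% for brain. For blood and immune genes they were 37.5% and 12.5%, of only 8 regions. Bone marker regions were gained over the same ages as the gained and lost member regions. The part of bone, or of any other tissue, in the member changes was not tested. The weakest peak called also differed between ages, with a ranking value on the −log10 p scale of 19.55 (P2), 13.5 (P5) and 11.4 (P8).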

How the data were processed

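ATAC-seq peaks of the cochlea were deposited as 1 list for each of 3 ages. Per the submitters' processing notes, the authors' tools included MACS2 2.1.0, Subread 1.4.6-p3 and Trimmomatic 0.33, with the mouse build mm10. Settings, read shifting and pooling are not given in the sources used here. In the deposited lists a peak's ranking value is on the authors' −log10 p-value scale. A deposited score gives the −log10 of the authors' irreproducible discovery rate (IDR), a measure of how well a peak's order repeats between input lists, and it reached an IDR of about 0.05 or lower in every line. The lists hold no read counts, so sequencing depth cannot be read from them, and greater depth can lengthen a list.

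Peaks, all 499 bp wide, were merged into regions where they overlapped by at least 1 bp, and each region was given to the nearest of 21887 protein-coding genes (RefSeq, GRCm38.p6, the same build as mm10) within 100 kb. Starts were read as counted from 0, which is uncertain by 1 bp. A region is near a gene end within 1 kb of it. Shares have Wilson 95% intervals. Scripts ran on Python 3.11.15 with pandas 2.3.3 and statsmodels 0.14.6, and the merging and assignment were tested on simulated data.

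The members, the roles and the lists of other pathway genes and markers were chosen with earlier results of these data known. Members are described in full where gained plus lost regions reach 4, where the net gain is 2 or more either way, or where a gene has the most regions of its role. For these, the gained, lost and all-age regions of highest percentile are given, and of the other pathway genes the 3 highest and 3 lowest in net gain, with ties. Alternatives were the upper 50% of each list, an IDR of at most 0.01, lists of equal length, a 50% overlap, changes also called at P5, limits of 50 and 20 kb, the nearest gene end, and every member within 50 kb. A further alternative, chosen after seeing the data, set the upper 50% of 1 age against all peaks of the other.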

Additional observations from a re-analysis of the deposited data

How the results depend on the processing

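No paired analysis was possible because each age has 1 list, and no replicate could be left out for the same reason. Against 36 gained and 60 lost member regions, a recount on the upper 50% of each list gave 14 and 32, which need not be among them. Changes also called at P5 numbered 13 and 22, and those with the upper 50% of 1 age against all of the other 4 and 7. The net gain per 100 member regions was 1.92 at equal list length and -1.09 with the upper 50% of 1 age, against -8.70. By role, the value with the upper 50% of each list was -35 for Bmp and Gdf ligands, 0 for Tgf-beta and activin ligands and -25 for inhibitory Smads. At equal list length it was 0 for Bmp and Gdf ligands, 10 for inhibitory Smads and 5.88 for type 2 and 3 receptors. At an IDR of at most 0.01 it was -46.15 for antagonists, -14.29 for inhibitory Smads and -17.14 for receptor and common Smads. The Tgf-beta and activin ligands came to -36.84 within 50 kb and -37.5 within 20 kb, and the inhibitory Smads to -11.76 within 20 kb. With every member within 50 kb, the receptor and common Smads came to -1.85. With the upper 50% of 1 age against all of the other, the Tgf-beta and activin ligands came to -3.85, the type 1 receptors to 8.0 and the receptor and common Smads to -2.17.

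Among genes, the net gain of Tgfbr2 turned to 1 with the upper 50% of each list, at an IDR of at most 0.01 and with the upper 50% of 1 age, and to 3 at equal length. Tgfb2 turned to 1 at an IDR of at most 0.01 and 3 at equal length, where Smad6 turned to 2. Smad3 came to -4 at an IDR of at most 0.01, -1 within 50 kb and within 20 kb, and -3 with every member within 50 kb. Smad1 came to -1 at an IDR of at most 0.01, and Bmpr1b to -1 with every member within 50 kb. The causes were not tested. The net gain of Gdf6, Id4, Nog and Smad5 kept its sign under all 10 alternatives. Counts of a few regions per gene, from lists whose depth is unknown, cannot tell a region that closed from one that fell below the limit of its list.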
